A study of Mus musculus with 9 samples.

Results

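Genes of cholesterol and fatty acid synthesis, with their sterol-sensing regulators and 2 sterol exporters, were followed by RNA-Seq of the neurosensory retina, taken from 9 C57BL/6 mice at P17. The 29 genes were taken by name from the 54532 genes of the deposited count table, and all 29 passed the filter on low counts that left 17540 genes for testing. In oxygen-induced retinopathy (OIR), pups live in high oxygen until P12 and then in room air, where the retina that has lost vessels becomes ischemic. The 3 control mice (1, 6, and 7 by their labels) were raised in room air, and their labels also name DMSO. The 3 OIR mice (3, 5, and 6) received DMSO vehicle in the eye at P12, and the 3 treated OIR mice (2, 5, and 10) received 1 intraocular injection of 32-134D, which inhibits HIF-1 and HIF-2 (hypoxia-inducible transcription factors), at P12. Its dose is 70 ng by the labels. Elsewhere it is stated as a concentration, so the injected amount is uncertain. All 9 mice are wild-type animals of 1 strain, each is a separate animal, and the numbers do not pair mice between groups.

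Cells make cholesterol from acetyl-CoA through mevalonate, squalene, and lanosterol. When sterols in the endoplasmic reticulum are low, SCAP carries the transcription factors SREBP-1 and SREBP-2 to the Golgi, where they are cleaved and released to activate genes of lipid synthesis, while INSIG proteins hold the complex back when sterols are plentiful. SREBP-2 acts mainly on cholesterol genes and SREBP-1c on fatty acid genes. When sterols are in excess, oxysterols activate liver X receptors (LXRs), which induce the exporters ABCA1 and ABCG1 and the gene for SREBP-1c. The retina both makes cholesterol and takes it up from blood, and Müller glia are a known site of its synthesis.

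Control retinas had 16864135 to 27213184 counts, OIR retinas 18556723 to 21071371, and treated OIR retinas 16028731 to 18560178. Treated OIR mouse 2 stood apart, because crystallin genes of the lens held 15.8% of its counts and at most 0.184% in any other mouse. The biological coefficient of variation among control mice was 0.260, among OIR mice 0.232, and among treated OIR mice 0.364, or 0.152 when mouse 2 was left out. Summed levels of 5 rod markers were 41341 to 64604 CPM (TMM-normalized read counts scaled to library size) in control, 33322 to 53454 CPM in OIR, and 38663 to 53590 CPM in treated OIR mice, and none was at 0 in any mouse. Summed levels of 5 Müller glia markers were 2871 to 3978, 3621 to 3896, and 1609 to 3613 CPM, with every treated OIR mouse below every OIR mouse and the lowest value in treated OIR mouse 2, and 1 of the 5 was significantly higher in OIR than in control mice. Summed levels of 5 red blood cell markers were 74.5 to 133, 9.44 to 58.0, and 53.7 to 169 CPM, with every OIR mouse below every control mouse. Summed levels of 8 lens markers were 13.3 to 201 CPM in control and 33.7 to 732 CPM in OIR mice, and reached 100199 CPM in treated OIR mouse 2. Summed levels of 5 retinal pigment epithelium markers overlapped among the 3 groups, at 88.6 to 258 CPM. Summed levels of 4 oligodendrocyte markers were low, at 33.1 to 42.0 CPM in control, 40.1 to 41.9 CPM in OIR, and 31.2 to 37.7 CPM in treated OIR mice, with every treated OIR mouse below every OIR mouse. The part of these cell types in the results was not tested. Judged from Xist and Y-linked counts, the females were control 1, OIR 3, and treated OIR 2 and 5. In bulk retina, fewer cells of a type and less RNA per cell cannot be told apart.

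The sequence before the start of 4 genes is shown because SREBPs and HIFs bind DNA near promoters and because these genes had the largest differences between groups or carry the sterol motif. Each line is 250 bases 5′ to 3′ in the direction of the gene, ending at the base before the RefSeq start (GRCm38.p6). They lie at chr15:82147019-82147268 on the plus strand for Srebf2, chr13:119690101-119690350 on the plus strand for Hmgcs1, chr5:28071162-28071411 on the plus strand for Insig1, and chr4:53159896-53160145 on the minus strand for Abca1. Capitals mark matches on either strand to TCACNCCAC (a form of the sterol regulatory element), CCAAT (the CCAAT box), and ACGTG (the core of the hypoxia response element). The run CACGTG in Insig1 and Abca1 holds the ACGTG core on both strands, so its 2 matches overlap.
Srebf2: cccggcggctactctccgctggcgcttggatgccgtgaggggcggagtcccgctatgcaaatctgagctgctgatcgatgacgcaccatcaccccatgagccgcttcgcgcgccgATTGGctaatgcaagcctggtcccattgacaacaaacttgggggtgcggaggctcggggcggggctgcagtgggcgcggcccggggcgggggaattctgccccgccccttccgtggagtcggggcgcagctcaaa
Hmgcs1: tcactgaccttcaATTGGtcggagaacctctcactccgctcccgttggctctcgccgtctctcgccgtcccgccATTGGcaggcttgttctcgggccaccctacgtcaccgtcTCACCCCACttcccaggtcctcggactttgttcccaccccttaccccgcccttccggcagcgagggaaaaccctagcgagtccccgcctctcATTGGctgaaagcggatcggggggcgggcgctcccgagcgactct
Insig1: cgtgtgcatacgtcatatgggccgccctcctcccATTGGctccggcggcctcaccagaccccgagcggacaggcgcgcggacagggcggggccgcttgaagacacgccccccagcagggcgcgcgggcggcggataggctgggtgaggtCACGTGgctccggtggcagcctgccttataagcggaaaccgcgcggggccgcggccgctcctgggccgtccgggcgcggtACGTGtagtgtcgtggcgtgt
Abca1: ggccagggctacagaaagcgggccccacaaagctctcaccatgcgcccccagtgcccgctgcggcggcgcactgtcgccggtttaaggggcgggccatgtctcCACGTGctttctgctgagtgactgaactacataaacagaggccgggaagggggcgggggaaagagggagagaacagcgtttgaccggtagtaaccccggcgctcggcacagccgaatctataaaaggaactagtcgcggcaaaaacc

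Hmgcs1 held the match to TCACNCCAC, at position -137 from its start, and 3 CCAAT boxes. Windows of 300 bases (250 before and 50 after a RefSeq start) were available here for 23 of the 29 genes. None was available for Stard4, Fdps, Abcg1, Sqle, Fdft1, and Scd2. Among the 29 windows of these 23 genes, 1 had TCACNCCAC (3.45%), against 1.24% of all 32851 windows available. A CCAAT box was found in 19 of the 29 windows (65.5%), against 37.4% of all windows. The ACGTG core was found in 8 (27.6%), in 7 genes including Insig1 and Abca1, against 19.6% of all windows. These matches describe letters in the window, and binding was not measured. Only exact matches to these patterns were sought. Other forms of the sterol element and sites for LXRs were not searched, so a line without a match may still hold them.

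Per kilobase of gene length, the control level ranged from 0.203 CPM for Fdps to 83.7 CPM for Scd2, a stearoyl-CoA desaturase that introduces a double bond into saturated fatty acids. Pmvk (phosphomevalonate kinase), the exporter Abcg1, and both SREBP genes followed, at 29.7 CPM per kilobase for Pmvk, 29.2 for Abcg1, 28.0 for Srebf1, and 23.4 for Srebf2. The 3 mice of Pmvk, Abcg1, and Srebf1 overlapped in control retinas, so their order is not resolved. The level of Fdps, the farnesyl diphosphate synthase gene, rested on 9 to 19 counts per mouse, and reads of a gene with near-identical copies may be split or dropped in counting, so its values are uncertain. Among the cholesterol enzymes other than Pmvk and Fdps, control levels per kilobase ran from 1.78 CPM (Hsd17b7) to 19.0 CPM (Hmgcs1).

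**Figure D1:**
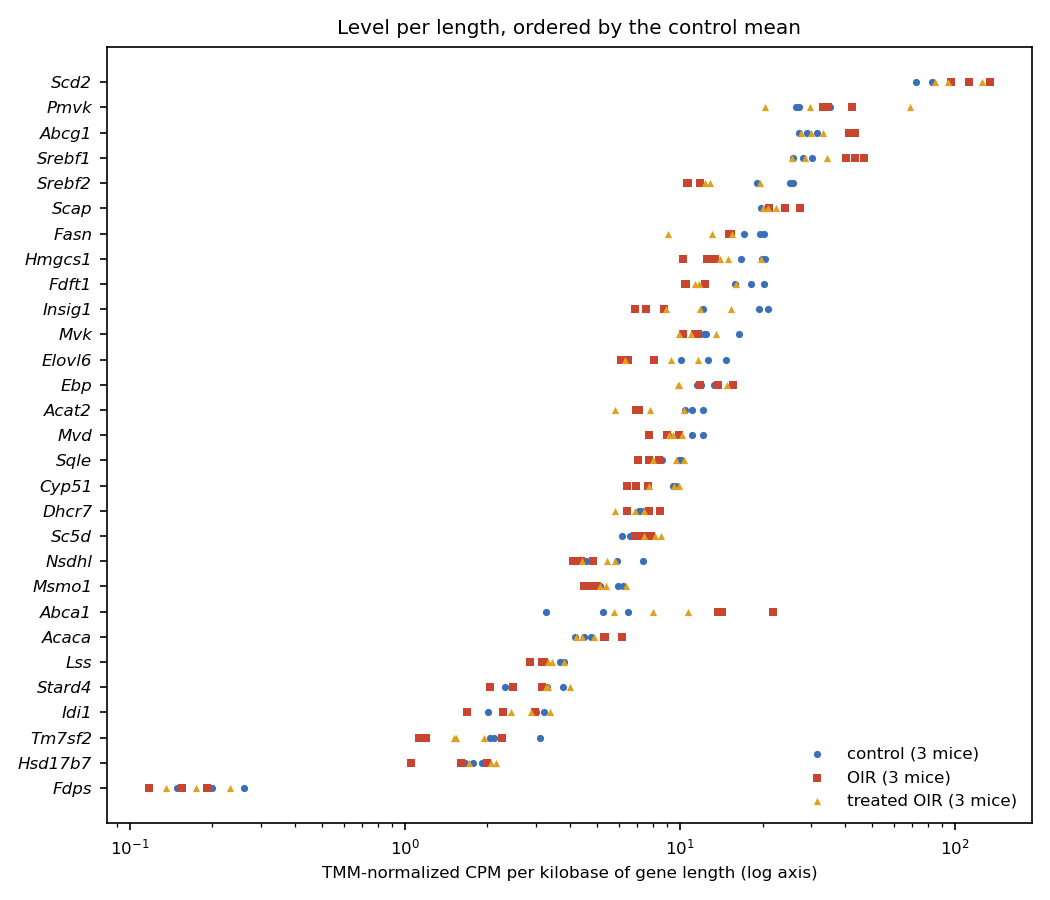
TMM-normalized CPM per kilobase of gene length (log axis) for the 29 genes, ordered by the control mean, with 1 point per mouse (3 control, 3 OIR, 3 treated OIR). Scd2 is highest and Fdps lowest, and the points of Abca1 shift to the right of the control points in all 3 OIR mice.

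The first comparison, of OIR with control mice, asks how lipid synthesis genes stand in the ischemic retina. Srebf2 fell and the exporters Abca1 and Abcg1 rose with an adjusted p below 0.05 (edgeR's quasi-likelihood test, Benjamini-Hochberg over 17540 genes). That is 3 of 29 genes (10.3%), where 0.433% of all genes tested were called higher and 0.507% lower. At an unadjusted p below 0.05, 5 of the 29 were higher (17.2%) and 8 lower (27.6%), beside 11.1% and 12.7% of all genes. The 3 OIR mice lay entirely above the 3 control mice in 7 genes (24.1%) and entirely below in 10 (34.5%), beside 15.9% and 17.2% of all genes. Of the 29 log2 fold changes 19 were negative, with a median of -0.29 and a range of -1.18 to 1.73, and the median over all genes was 0.03. Without control mouse 7 the median of the 29 was -0.17.

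**Figure D2:**
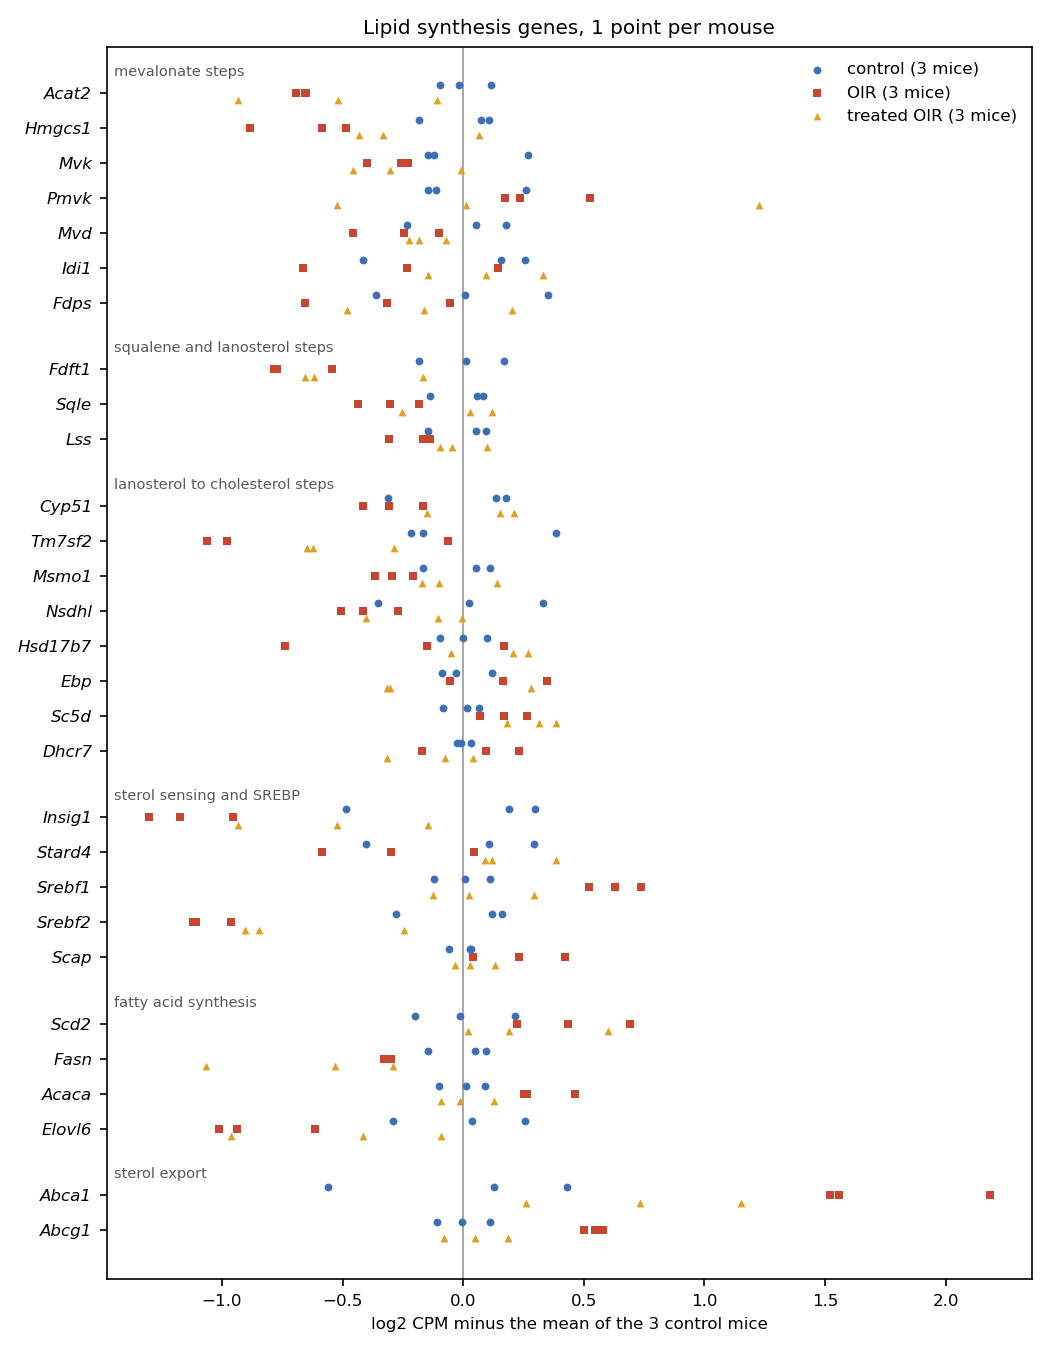
Each of the 29 genes in each mouse as log2 CPM minus the mean of the 3 control mice (0 on the axis), grouped by role, with circles for control, squares for OIR, and triangles for treated OIR. Squares of Srebf2, Insig1, Fdft1, and Elovl6 lie left of all circles, squares of Abca1, Abcg1, and Srebf1 lie right of all circles, and Pmvk has 1 treated OIR mouse far to the right.

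Srebf2 encodes SREBP-2 and lies on chromosome 15 (82147181 to 82205379). Its level was 137, 186, and 181 CPM in control, 85.3, 77.0, and 76.4 CPM in OIR, and 88.7, 92.4, and 140 CPM in treated OIR mice, in the order of their numbers as in all later lists. All OIR mice were below all control mice, and treated OIR mouse 10 was the only one of its group inside the control range. Between OIR and control mice the log2 fold change was -1.08 ± 0.19 (SE, 3 mice per group, adjusted p = 0.0456 by edgeR). Insig1, which retains the SCAP-SREBP complex and is itself an SREBP target, was chosen for full description after its values were seen. It was at 37.6, 64.7, and 60.1 CPM in control, 27.2, 21.3, and 23.3 CPM in OIR, and 27.5, 36.6, and 47.6 CPM in treated OIR mice. The OIR mice did not overlap with the control mice, and the log2 fold change of -1.18 ± 0.25 missed the threshold (adjusted p = 0.0586 by edgeR).

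Srebf1, which encodes SREBP-1, lay on the other side of control. Its level was 145, 170, and 159 CPM in control, 244, 227, and 263 CPM in OIR, and 160, 193, and 145 CPM in treated OIR mice. The OIR mice were above both other groups, with a log2 fold change over control of 0.63 ± 0.13 that missed the threshold (adjusted p = 0.0562 by edgeR). Srebf1 overlaps Rai1 on the opposite strand, which had up to 1719 counts in a mouse against up to 5842 for Srebf1, and whether counting used strand is not given in the sources used here. Scap was at 153 ± 5.47 CPM in control and 180 ± 23.6 CPM in OIR mice (SD, 3 mice each), and Stard4, a carrier of cholesterol between membranes, at 17.4 ± 4.11 and 14.3 ± 3.16 CPM. Neither passed an unadjusted p of 0.05.

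Of the 18 enzymes of cholesterol synthesis, none passed the adjusted threshold in OIR against control mice, and 5 had an unadjusted p below 0.05, all of them lower (27.8%, beside the 12.7% of all genes given above). The log2 fold change was negative in 14 of the 18, with a median of -0.30. The mean over the 18 of log2 CPM relative to control was -0.22, -0.35, and -0.26 for the OIR mice, against -0.09, 0.00, and 0.09 for the control mice. The median log2 CPM over the 18, relative to control, was -0.087, -0.109, and -0.060 for the OIR mice. For the control mice it was -0.057, 0.055, and 0.0020. This median was taken over levels, so it follows the genes of middle level and is not a median of changes per gene.

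Among the mevalonate steps, Hmgcs1 (HMG-CoA synthase) was at 76.5, 91.4, and 93.5 CPM in control, 61.9, 47.1, and 57.9 CPM in OIR, and 69.0, 64.3, and 90.9 CPM in treated OIR mice. The OIR mice did not overlap with the control mice, and the log2 fold change was -0.65 ± 0.16 (adjusted p = 0.0706 by edgeR). Acat2, which joins acetyl-CoA units at the start of the pathway, was at 26.6, 28.1, and 30.8 CPM in control, 18.1, 17.6, and 18.0 CPM in OIR, and 14.8, 19.9, and 26.4 CPM in treated OIR mice. It also separated OIR from control mice, with a log2 fold change of -0.67 ± 0.19 (adjusted p = 0.0941 by edgeR). Mvk, Mvd, Idi1, and Fdps, the kinase, decarboxylase, isomerase, and synthase that follow, had log2 fold changes between -0.38 and -0.24, and none passed an unadjusted p of 0.05. Pmvk had a log2 fold change of 0.31 ± 0.37.

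In the squalene and lanosterol steps, Fdft1 (squalene synthase, chromosome 14, 63145150 to 63179578) was at 67.0, 76.5, and 85.6 CPM in control, 52.1, 44.1, and 44.5 CPM in OIR, and 48.2, 49.5, and 67.7 CPM in treated OIR mice. OIR and control mice did not overlap, and the log2 fold change was -0.70 ± 0.15 (adjusted p = 0.0608 by edgeR). Fdft1 overlaps Ctsb on the opposite strand, which had up to 34601 counts in a mouse, so the values of Fdft1 are uncertain to that extent. Sqle (squalene epoxidase) was at 48.0, 55.9, and 54.9 CPM in control, 46.6, 39.0, and 42.8 CPM in OIR, and 57.3, 44.3, and 53.9 CPM in treated OIR mice. Its OIR mice lay just below its control mice, with a log2 fold change of -0.31 ± 0.12 (adjusted p = 0.175 by edgeR). Lss, which cyclizes the epoxide to lanosterol, had a log2 fold change of -0.21 ± 0.11.

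In the 8 steps from lanosterol to cholesterol the median log2 fold change was -0.25, and 1 gene had an unadjusted p below 0.05. Cyp51 (lanosterol demethylase) was at 30.5, 41.7, and 42.8 CPM in control, 33.8, 28.4, and 30.6 CPM in OIR, and 43.8, 34.2, and 42.1 CPM in treated OIR mice, with overlapping OIR and control mice. Cyp51 overlaps Akap9 on the opposite strand, which had up to 1678 counts in a mouse, so its values are uncertain in the same way as those of Fdft1. Msmo1 (methylsterol oxidase) was at 36.8, 38.3, and 31.6 CPM in control, 28.9, 30.7, and 27.5 CPM in OIR, and 31.5, 33.1, and 39.1 CPM in treated OIR mice. Its OIR mice lay below its control mice, with a log2 fold change of -0.29 ± 0.12 (adjusted p = 0.188 by edgeR). Sc5d, a sterol desaturase, was instead at 30.0, 33.3, and 32.2 CPM in control, 35.7, 33.4, and 38.2 CPM in OIR, and 41.5, 36.1, and 39.6 CPM in treated OIR mice, and its OIR mice lay just above its control mice. The reductase Tm7sf2, which overlaps Vps51 on the same strand (overlapping genes had up to 151 counts), the dehydrogenase Nsdhl, and the ketoreductase Hsd17b7 had log2 fold changes of -0.66, -0.42, and -0.20. Ebp (sterol isomerase) and Dhcr7 (the final reductase) had 0.16 and 0.06, and none of these 5 passed an unadjusted p of 0.05.

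The 4 fatty acid synthesis genes did not share a direction. Elovl6, which elongates palmitate, was at 65.0, 81.7, and 95.0 CPM in control, 52.0, 41.6, and 39.5 CPM in OIR, and 40.8, 59.7, and 74.7 CPM in treated OIR mice. OIR mice were below control mice, with a log2 fold change of -0.86 ± 0.22 (adjusted p = 0.0811 by edgeR). Acaca, acetyl-CoA carboxylase 1, was at 71.1, 81.0, and 76.8 CPM in control, 90.7, 91.6, and 105 CPM in OIR, and 83.4, 71.6, and 75.4 CPM in treated OIR mice. Every OIR mouse was above every other mouse, with a log2 fold change over control of 0.33 ± 0.10 (adjusted p = 0.105 by edgeR). Fasn (fatty acid synthase) was at 188, 222, and 215 CPM in control, 165, 168, and 166 CPM in OIR, and 99.2, 144, and 169 CPM in treated OIR mice. Its OIR mice lay below its control mice, with a log2 fold change of -0.32 ± 0.17 (adjusted p = 0.295 by edgeR), and treated OIR mouse 2 had the lowest value of all. Scd2 was at 457 ± 65.8 CPM in control and 625 ± 102 CPM in OIR mice (SD, 3 mice each), without overlap and with an adjusted p of 0.189 by edgeR.

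Abca1, the transporter that loads cholesterol onto apolipoproteins, had the largest difference of the 29 genes and lies on chromosome 4 (53030787 to 53159895). It was at 67.3, 54.6, and 33.8 CPM in control, 147, 143, and 227 CPM in OIR, and 111, 83.1, and 59.9 CPM in treated OIR mice. Every OIR mouse was above every other mouse, and Abca1 rose 3.32-fold over control (log2 fold change 1.73 ± 0.31, adjusted p = 0.0469 by edgeR). Abcg1, which exports cholesterol to lipoprotein particles (chromosome 17, 31057698 to 31115777 in the deposited table), was at 110, 128, and 118 CPM in control, 173, 168, and 177 CPM in OIR, and 112, 135, and 123 CPM in treated OIR mice. The OIR mice again stood above both other groups, and Abcg1 rose 1.45-fold over control (log2 fold change 0.54 ± 0.099, adjusted p = 0.0485 by edgeR).

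**Figure D3:**
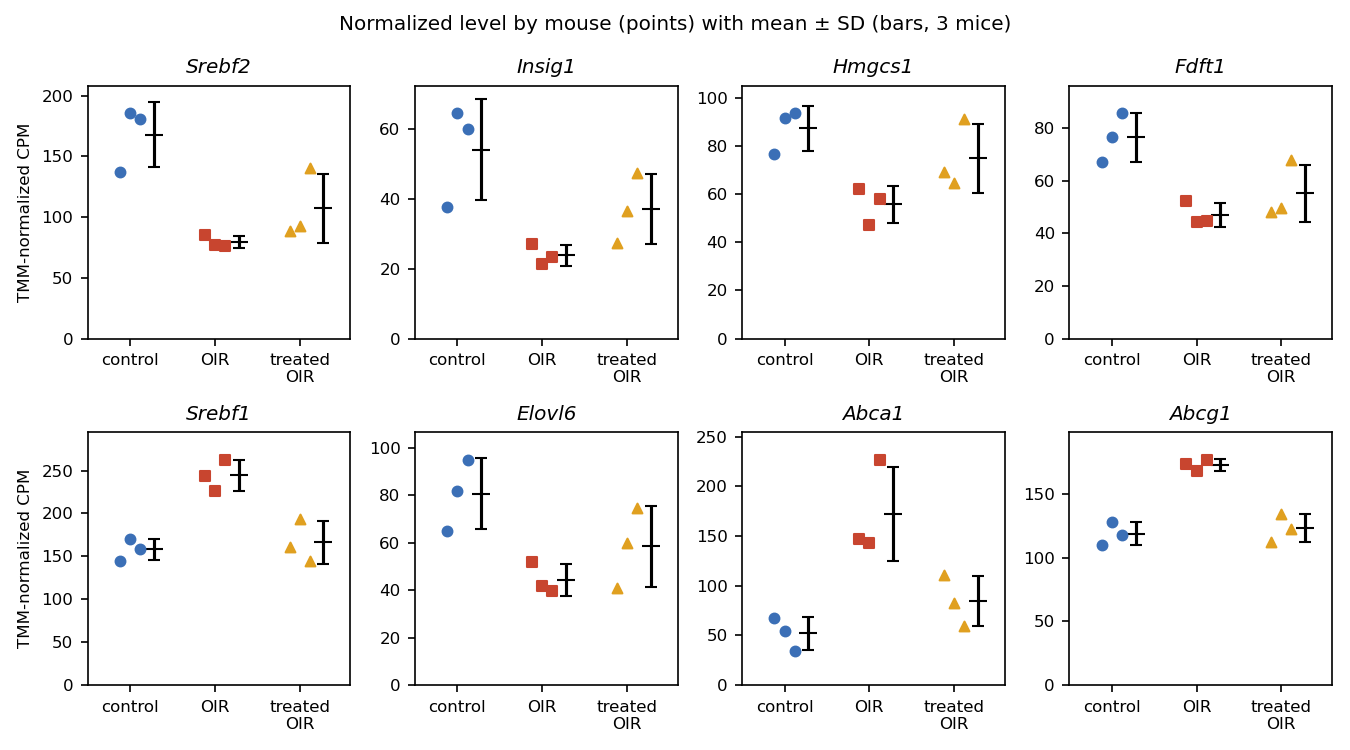
TMM-normalized CPM of 8 genes in each mouse (points; axes start at 0) with the mean ± SD of 3 mice (bars). In Srebf2, Insig1, Hmgcs1, Fdft1, and Elovl6 all OIR points lie below the control points, and in Srebf1, Abca1, and Abcg1 all OIR points lie above those of both other groups.

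These calls lay close to the threshold and depended on single mice. Leaving out any control or OIR mouse, or treated OIR mouse 5, left 0 of the 29 genes called, and also 0 of all genes tested, while 10 to 14 of the 29 kept an unadjusted p below 0.05. Leaving out treated OIR mouse 2 gave 9 calls (Abca1, Abcg1, and Srebf1 higher, and Srebf2, Insig1, Hmgcs1, Acat2, Fdft1, and Elovl6 lower), where 12.5% of all genes were called. With sex in the model, 0 of the 29 and 0 of all genes were called, and 11 of the 29 had an unadjusted p below 0.05. The share of all genes at an unadjusted p was not counted with sex in the model or without single mice. The fold changes moved little, with log2 values in the model with sex of -1.05 for Srebf2, 1.78 for Abca1, and 0.54 for Abcg1, and ranges over the fits without 1 mouse of -1.20 to -0.997, 1.48 to 1.96, and 0.49 to 0.60.

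The second comparison, of treated OIR with OIR mice, asks what changes when HIF is inhibited after the return to room air. No gene of the 29 passed the adjusted threshold, and 0% of all genes passed it in either direction. At an unadjusted p below 0.05, 4 of the 29 were higher and 4 lower in treated OIR mice (13.8% each), beside 2.39% and 2.3% of all genes. The treated OIR mice lay entirely above the OIR mice in 7 genes (24.1%) and entirely below in 4 (13.8%), beside 3.74% and 5.39% of all genes. The median log2 fold change was 0.19 (all genes 0.01), and 20 of 29 values were positive.

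The 4 lower genes were Abcg1, Srebf1, Abca1, and Acaca, and in each all 3 treated OIR mice lay below all 3 OIR mice. The log2 fold change was -0.49 ± 0.099 for Abcg1 (adjusted p = 0.838 by edgeR), -0.56 ± 0.13 for Srebf1 (adjusted p = 0.862), -1.03 ± 0.30 for Abca1 (adjusted p = 0.984), and -0.32 ± 0.099 for Acaca (adjusted p = 0.984). The 4 higher genes were Insig1, Srebf2, Hmgcs1, and Cyp51. Their log2 fold changes were 0.64 ± 0.24, 0.43 ± 0.19, 0.43 ± 0.16, and 0.37 ± 0.16, with adjusted p of 0.9998 each by edgeR. Of the 18 cholesterol enzymes 16 had a positive log2 fold change, with a median of 0.21. Their mean log2 CPM relative to control was -0.09, -0.24, and 0.00 in treated OIR mice 2, 5, and 10, so that by this mean mouse 5 lay within the OIR range of -0.35 to -0.22 and the other 2 above it. The median log2 CPM over the 18 was 0.034, -0.028, and 0.161, each above the values of the OIR mice. Since this median follows genes of middle level, it does not show that the changes per gene of mouse 5 left the OIR range.

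Treated OIR mouse 10 had the highest level of its group in Srebf2, Insig1, Hmgcs1, Acat2, Fdft1, Msmo1, Fasn, and Elovl6 and the lowest in Srebf1 and Abca1. Without it, the median log2 fold change of the 29 genes between treated OIR and OIR mice was 0.06, none of the genes was higher at an unadjusted p below 0.05, and 5 were lower. The same counts, 0 higher and 5 lower, were found without OIR mouse 5 and with scaling by total counts alone. The median over all genes was -0.0017 without treated OIR mouse 10, 0.018 without OIR mouse 5, and -0.091 with total counts alone (0.0058 in the main fit). The higher genes numbered 2 without OIR mouse 6 or without control mouse 6, and 7 without treated OIR mouse 2. The share of all genes at an unadjusted p was not counted under these settings, so these counts have none beside them. Pmvk was at 118 CPM in treated OIR mouse 2 and at 50.8 and 35.1 CPM in treated OIR mice 5 and 10, beside 45.5 to 60.4 CPM in control mice. Mouse 2 also held the high share of crystallin counts given above, and the part of lens RNA in its values was not tested.

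**Figure D4:**
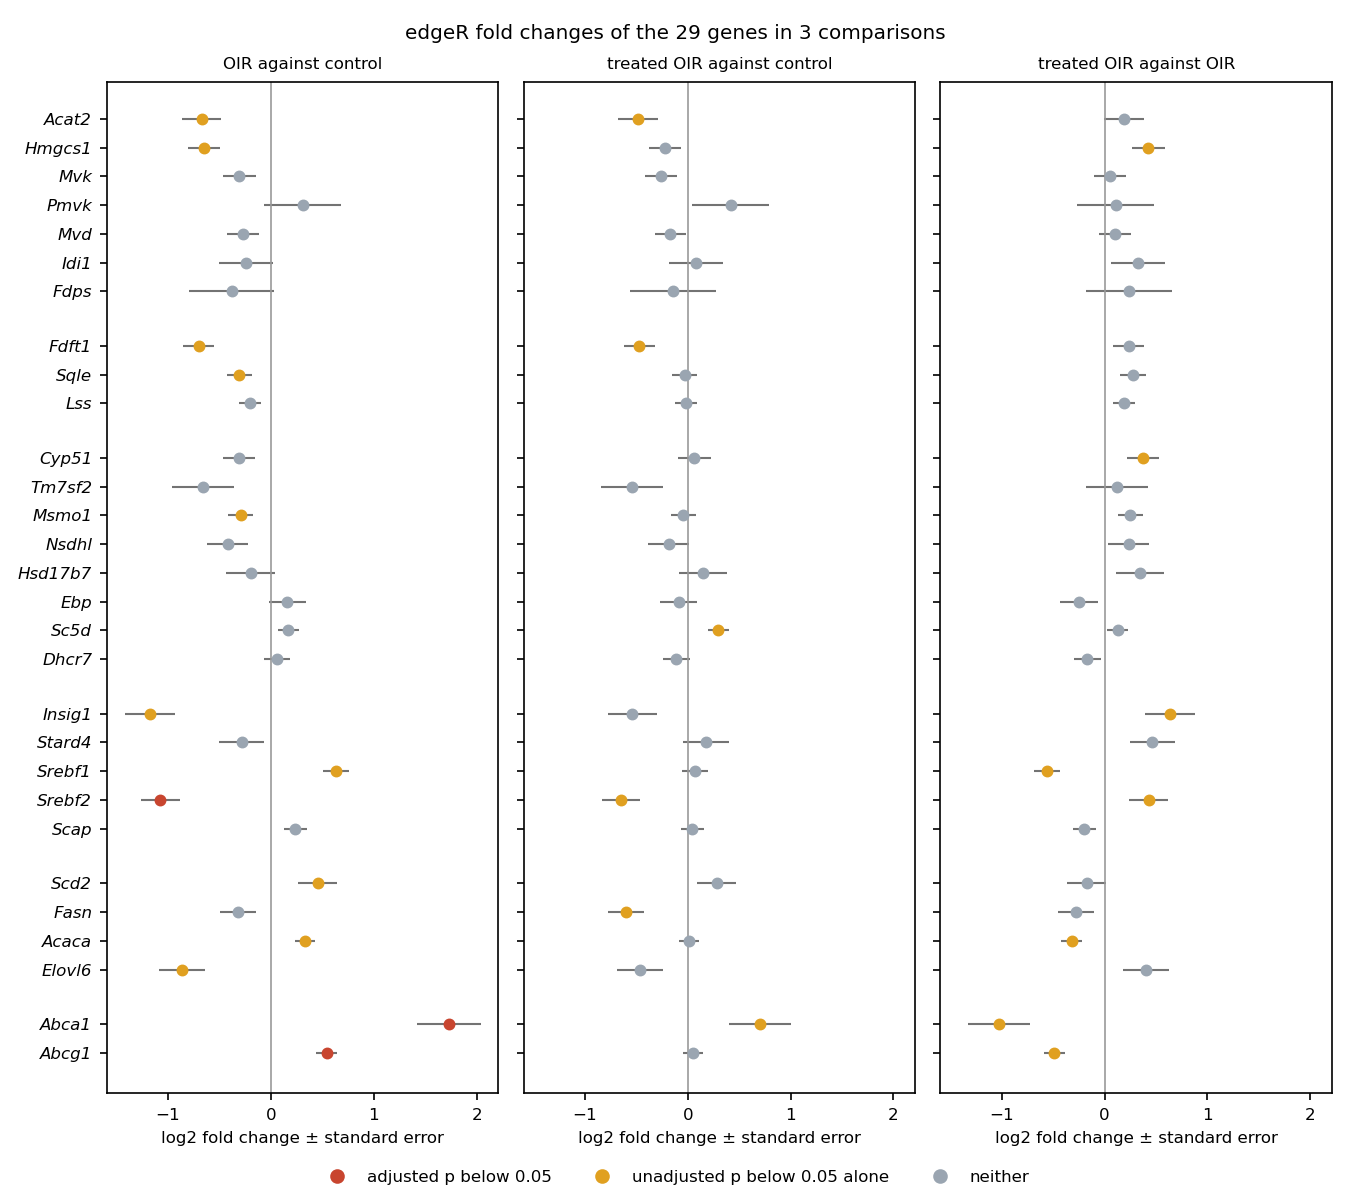
Log2 fold change ± SE from edgeR (3 mice per group) for the 29 genes in each of the 3 comparisons, with red for an adjusted p below 0.05 and yellow for an unadjusted p below 0.05 alone. Red points occur only for Srebf2, Abca1, and Abcg1 in OIR against control. The comparisons share mice.

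In the third comparison, of treated OIR with control mice, none of the 29 genes passed the adjusted threshold by edgeR. Of all genes, 0.0114% were called higher and 0.0114% lower by edgeR. Fasn and Srebf2 (2 of the 29) passed with DESeq2 on all 9 mice and with limma-voom, where 4.68% and 5.28% of all genes were called. By edgeR at an unadjusted p below 0.05, 2 of the 29 were higher and 4 lower, beside 10% and 8.6% of all genes. Groups did not overlap in 1 gene that was higher and 3 that were lower, beside 12.8% and 12.2% of all genes. The lower genes at an unadjusted p below 0.05 are 13.8% of the 29, above the share of all genes, while the other 3 shares (6.90% for higher genes, and 3.45% and 10.3% without overlap) are below it. The lower genes were Srebf2 (log2 fold change -0.65 ± 0.19, adjusted p = 0.163 by edgeR), Fasn (-0.60 ± 0.17, adjusted p = 0.163), Fdft1 (-0.47 ± 0.15, adjusted p = 0.185), and Acat2 (-0.48 ± 0.19, adjusted p = 0.229). The higher genes were Sc5d (0.30 ± 0.10, adjusted p = 0.202 by edgeR) and Abca1 (0.70 ± 0.30, adjusted p = 0.258). Abcg1, Srebf1, and Acaca had log2 fold changes of 0.05, 0.07, and 0.01, whose sign changed under other settings.

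Across the 9 mice, the genes whose log2 CPM was most like that of Srebf2 were Fdft1 (Pearson r = 0.98), Insig1 (0.96), Elovl6 (0.94), Acat2 (0.93), and Hmgcs1 (0.92). After the group means were removed, r was 0.94, 0.91, 0.84, 0.81, and 0.86. Abca1 had r = -0.92, and -0.72 after the group means were removed. Not all cholesterol enzymes moved together, since the median r over the 153 pairs of the 18 enzymes was 0.32 and 104 were positive. These values are descriptions, because the mice share groups, depth, and composition.

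Other genes of lipid metabolism were counted in the same fit. Of 31 genes in fatty acid supply and modification, the isoprenoid branch, and sterol handling, 1 passed the adjusted threshold in OIR against control mice and none in the other 2 comparisons. That gene was Tecr, the last reductase of very long chain fatty acid elongation, which fell by 0.76 ± 0.11 on the log2 scale (adjusted p = 0.0407 by edgeR), from 389 ± 34.6 CPM in control to 229 ± 16.6 CPM in OIR mice (SD, 3 mice each). At an unadjusted p below 0.05, 5 of the 31 were higher in OIR than in control mice (Elovl2, Elovl5, Acsl3, Mylip, and Pggt1b) and 2 lower (Tecr and Cyp46a1), which is 16.1% and 6.45%, beside 11.1% and 12.7% of all genes. These genes are named because they were counted, after their values were seen. Mylip, an LXR target that promotes degradation of lipoprotein receptors, had a log2 fold change of 0.53 ± 0.13 in OIR against control mice (adjusted p = 0.0737 by edgeR) and -0.44 ± 0.13 in treated OIR against OIR mice (adjusted p = 0.984). Cyp46a1, the neuronal cholesterol hydroxylase, was at 27.3 ± 2.18 CPM in control and 12.2 ± 3.96 CPM in OIR mice (SD, 3 mice each), with an adjusted p of 0.0706 by edgeR. In treated OIR against OIR mice, 1 of the 31 was higher (Insig2) and 5 lower (Elovl5, Fads2, Npc1, Mylip, and Cyp27a1) at an unadjusted p below 0.05, which is 3.23% and 16.1%, beside 2.39% and 2.3% of all genes. In treated OIR against control mice 3 were higher and 2 lower (9.68% and 6.45%), beside 10% and 8.6% of all genes.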

How the data were processed

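RNA-Seq was analysed in 9 retinas (3 control, 3 OIR, 3 treated OIR), grouped by their labels. The deposited table holds unnormalized whole-number counts for each gene and mouse, made by the authors, and a gene length. The submitters' processing notes name CASAVA and HISAT, and the counting tool, annotation, and use of strand are not given in the sources used here. Of gene identifiers shared with GENCODE M21, 98.3% have an identical position there, as do 26 of the 29 genes, so coordinates are given on GRCm38 (Tm7sf2, Scd2, and Abcg1 as the table has them).

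Counts were fitted with edgeR 4.0.16 in R 4.3.3 (TMM, filterByExpr by group, quasi-likelihood test, all 9 mice with 1 mean per group), with Benjamini-Hochberg adjustment over 17540 genes and a threshold of 0.05. The standard error is the log2 fold change divided by the square root of F. Log2 CPM used a prior count of 2. Precision is set by the spread of 3 mice per group and, for Fdps, by its few counts. No mouse was a copy of another. Alternatives were DESeq2 1.42.0, limma 3.58.1 (voom), other scalings and filters, edgeR on the 2 groups compared, sex as a covariate, and leaving out each mouse. Only the main edgeR fit was run on simulated counts, for OIR against control and treated OIR against control mice. The alternatives were not. The genes and lists were chosen with earlier results of these data known. Genes given in full are those with an adjusted p below 0.05 in any comparison and, in each of 6 role groups and each comparison, the gene with the smallest unadjusted p, which gave 14 genes. Figures were drawn with matplotlib 3.10.9 in Python 3.11.15.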

Additional observations from a re-analysis of the deposited data

How the results depend on the processing

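For OIR against control mice, the main fit called 3 of the 29 genes and 0.941% of all genes. The count became 0 with scaling by total counts alone (0.211% of all genes called, 12 of the 29 at an unadjusted p below 0.05). It was also 0 with sex as a covariate (0% of all genes, 11 of the 29). It was 7 without the filter on low counts (1.75% of all genes) and 6 with 10 counts required in every mouse (2.55%). It was 9 with edgeR on the 2 groups (10.3%), 9 with limma-voom (13.1%), 9 with DESeq2 on all 9 mice (10.6%), and 10 with DESeq2 on the 2 groups (14.3%). When 1 mouse was left out it was 0 to 9, where 0% to 12.5% of all genes were called. Calls split into 2 higher and 1 lower by TMM, 1 and 1 with DESeq2's size factors or without crystallin genes, and 3 and 1 with upper-quartile scaling. The share of all genes called was 0.770% with DESeq2's size factors, 0.834% without crystallin genes, and 1.31% with upper-quartile scaling. No scaling moved the median of all genes by over 0.1. The median log2 fold change of the 29 genes was -0.37 to -0.17 when 1 mouse was left out, lowest in size without control mouse 7. For treated OIR against control mice, the count of 0 became 2 with DESeq2 on all 9 mice and 2 with limma-voom (Fasn and Srebf2 in both). These settings called 4.68% and 5.28% of all genes. For treated OIR against OIR mice, the count was 0 under every alternative run, where 0% to 0.381% of all genes were called. The median of 0.19 was 0.090 with total counts alone (all genes -0.091) and 0.058 to 0.23 when 1 mouse was left out. The causes were not tested.

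Signs changed in treated OIR against control mice for Acaca, with -0.0017 under DESeq2's size factors, -0.027 under total counts alone, -0.0012 and -0.000112 under DESeq2 on all 9 mice and on the 2 groups, and -0.10 under limma-voom, and for Cyp51, with -0.11 under limma-voom. With 1 mouse left out, log2 fold changes ranged from -0.10 to 0.072 for Sqle, -0.079 to 0.17 for Cyp51, -0.14 to 0.026 for Msmo1, -0.050 to 0.16 for Srebf1, -0.045 to 0.057 for Acaca, and -0.017 to 0.12 for Abcg1, and in treated OIR against OIR mice from -0.044 to 0.40 for Acat2. In OIR against control mice, Srebf2, Abca1, and Tecr passed the threshold in 11 of 20 alternatives and Abcg1 in 8, with no change of direction. No paired analysis was possible because the groups share at most 1 replicate number, and the numbers name separate animals.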
